A study of Homo sapiens with 10 samples.

Results

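The heat shock protein genes described here are HSPA1A, HSPA1B, HSPA8, HSPH1, DNAJB1, HSP90AA1, HSP90AB1, HSPB1, HSPD1 and HSPE1. They were taken by gene symbol, in a choice made with earlier results of these data known. They make up 10 of the 18034 gene IDs in the deposited tables. All 10 were measured in every library and passed the filter on low values in every comparison. They encode molecular chaperones, proteins that bind unfolded or partly folded proteins and help them reach or keep their fold. HSP70 proteins take up exposed segments in cycles driven by J-domain partners and exchange factors, HSP90 acts later on kinases and receptors, small heat shock proteins hold unfolding proteins, and chaperonins enclose them in mitochondria. Under stress the transcription factor HSF1 binds heat shock elements in the promoters of many of these genes. Tumour cells often carry high levels without heat. Inducible Hsp70 genes, first in Drosophila, are classic cases of promoters whose paused RNA polymerase II is released by P-TEFb, the elongation factor whose kinase is CDK9.

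Levels of mRNA were measured in HCT116 cells, a human line grown from a colorectal carcinoma, in 5 groups of 2 libraries (10 in all). EPZ cells were kept for 72 h with 10 µM EPZ-5676, which inhibits DOT1L, and their controls with DMSO, both without knockdown. The other 3 groups all carry a CDK9 knockdown (shCDK9) and no drug. K56A was reconstituted with CDK9 carrying a lysine to alanine change, WT with wild-type CDK9, and EV is labelled with these letters alone. No knockdown-free cells stand in that experiment, and the labels do not say whether a line is 1 clone. They do not name the replicates as separate cultures either, so the spread behind each p-value may be technical only. No heat treatment is named for any group.

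CDK9 stood at 2611 and 2500.3 FPKM (fragments counted per length of transcript and per total of the library) in K56A libraries and 3060.2 and 2976 FPKM in WT libraries, against 16.4 and 19.4 FPKM in EV libraries. DOT1L, the histone H3 methyltransferase inhibited by EPZ-5676, stood at 733 and 703 FPKM in K56A and 578 and 568 FPKM in WT, against 324 and 343 FPKM in EV. The EPZ and DMSO libraries held 10.4 to 12.6 FPKM of DOT1L. The labels do not say whether DOT1L came from a vector in the knockdown lines, and its part in the values below was not tested. All 7 epithelial markers of a list reached 1 FPKM. Of fibroblast markers 1 of 5 reached it, and of haematopoietic and endothelial markers 0 of 5 and 0 of 4 did. The inhibitor and knockdown tables were normalized apart. Mitochondrially encoded transcripts took 17.3% to 19.3% of all FPKM in the EPZ and DMSO libraries and 25.3% to 27.9% in the knockdown lines.

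HSPA1A and HSPA1B encode the stress-inducible HSP70 and lie next to each other on chromosome 6 (GRCh38), their starts 12195 bases apart. The files place HSPA1A (ENSG00000204389) at chr6:31815543-31817946 and HSPA1B (ENSG00000204388) at chr6:31827738-31830254, both on the plus strand. In the GENCODE v29 transcripts the coding sequences have 1926 bases each, of which 4 differ, all at the last position of a codon. The longest identical run is 1709 bases. Of all 100-base windows of HSPA1A-201, 69.9% occur unchanged in HSPA1B-201. Of those within the coding part, 90.9% occur unchanged in the coding part of HSPA1B, so most fragments from there cannot be assigned to one copy by sequence. The stretch with most coding differences, coding bases 1831 to 1920, is shown for both copies from chr6:31817587-31817676 and chr6:31829781-31829870, with the differing bases in capitals. The 2 lines differ at 3 places, written as the HSPA1A base, the coding position and the HSPA1B base: G1860C, C1905T and A1920G.
HSPA1A: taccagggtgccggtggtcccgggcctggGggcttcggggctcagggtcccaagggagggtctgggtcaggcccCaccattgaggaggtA
HSPA1B: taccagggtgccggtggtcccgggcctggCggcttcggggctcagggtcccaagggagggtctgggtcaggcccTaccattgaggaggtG

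Promoter sequences (RefSeq, GRCh38.p14, 250 bases before to 50 after a start) were found for all 10 genes, and the window nearest the start of the most abundant listed transcript was used. Heat shock elements were searched as the units GAA and TTC alternating with 2 bases of any kind between them (GAANNTTC or TTCNNGAA for 2 units, GAANNTTCNNGAA or TTCNNGAANNTTC for 3), on both strands, the longer pattern containing the shorter. A 2-unit match occurred in 7 of the 10 windows, against 13.5% of all 35116 promoters. A 3-unit match occurred in 3 of the 10, in HSPA8, HSP90AA1 and HSPD1, against 0.49% of all promoters. TATAAA occurred in 2 of the 10 (HSPA1A and HSPA1B) against 11.5% of all promoters, CCAAT in 4 against 34.6%, and GGGCGG in 9 against 45.0%. No 2-unit match lay in the windows of HSPH1, HSP90AB1 and HSPE1, which says only that these letters are not there, and the RefSeq start used for HSPH1 lies 461 bases upstream of that of its most abundant listed transcript. Because the genes differ in how many units they carry, stretches with matches are shown. They are printed 5′ to 3′ on the strand of the gene, with the matched bases in capitals. They come from chr6:31815419-31815462 for HSPA1A, chr6:31827615-31827658 for HSPA1B, chr11:123062171-123062199 for HSPA8, chr19:14518422-14518489 for DNAJB1, chr14:102087104-102087133 for HSP90AA1, chr7:76302473-76302516 for HSPB1 and chr2:197500062-197500090 for HSPD1. HSP90AB1 has 3-unit matches in a second RefSeq window whose start lies 842 bases downstream of its main start (chr6:44247760-44247861). HSPA8 has 2 separate 3-unit matches in its window, of which the one nearer the start is shown; all matches of the other windows named are shown. A match is a description of letters, not a measured binding site.
HSPA1A: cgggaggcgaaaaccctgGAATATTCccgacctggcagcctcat
HSPA1B: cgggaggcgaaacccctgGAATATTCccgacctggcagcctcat
HSPA8: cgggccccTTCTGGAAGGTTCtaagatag
DNAJB1: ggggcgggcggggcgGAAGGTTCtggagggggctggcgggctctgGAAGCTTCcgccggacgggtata
HSP90AA1: cTTCCGGAAGGTTCgggaggcTTCTGGAAa
HSPB1: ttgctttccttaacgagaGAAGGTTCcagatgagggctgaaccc
HSPD1: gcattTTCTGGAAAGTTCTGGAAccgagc
HSP90AB1, downstream window: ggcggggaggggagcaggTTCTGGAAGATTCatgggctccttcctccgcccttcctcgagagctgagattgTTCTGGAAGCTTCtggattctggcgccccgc

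The 10 genes together made up at most 0.603% of all FPKM in the EPZ libraries, 0.625% and 0.656% in the DMSO libraries and 0.682% to 0.716% in the knockdown lines. HSP90AB1, HSP90AA1 and HSPA8 stood highest and HSPA1A lowest of the 10 in every library. None of the 10 passed the adjusted threshold of 0.05 in any of the 4 comparisons (limma, Benjamini-Hochberg over all genes tested), so the values of the groups are given below without a verb of change. At an unadjusted p under 0.05 the counts were 0 of 10 for EPZ against DMSO (5.83% of all genes tested), 3 for K56A against EV (15.1%), 3 for WT against EV (13.5%) and 1 for K56A against WT (13%). In bulk RNA, fewer expressing cells and less RNA per cell cannot be told apart.

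**Figure D1:**
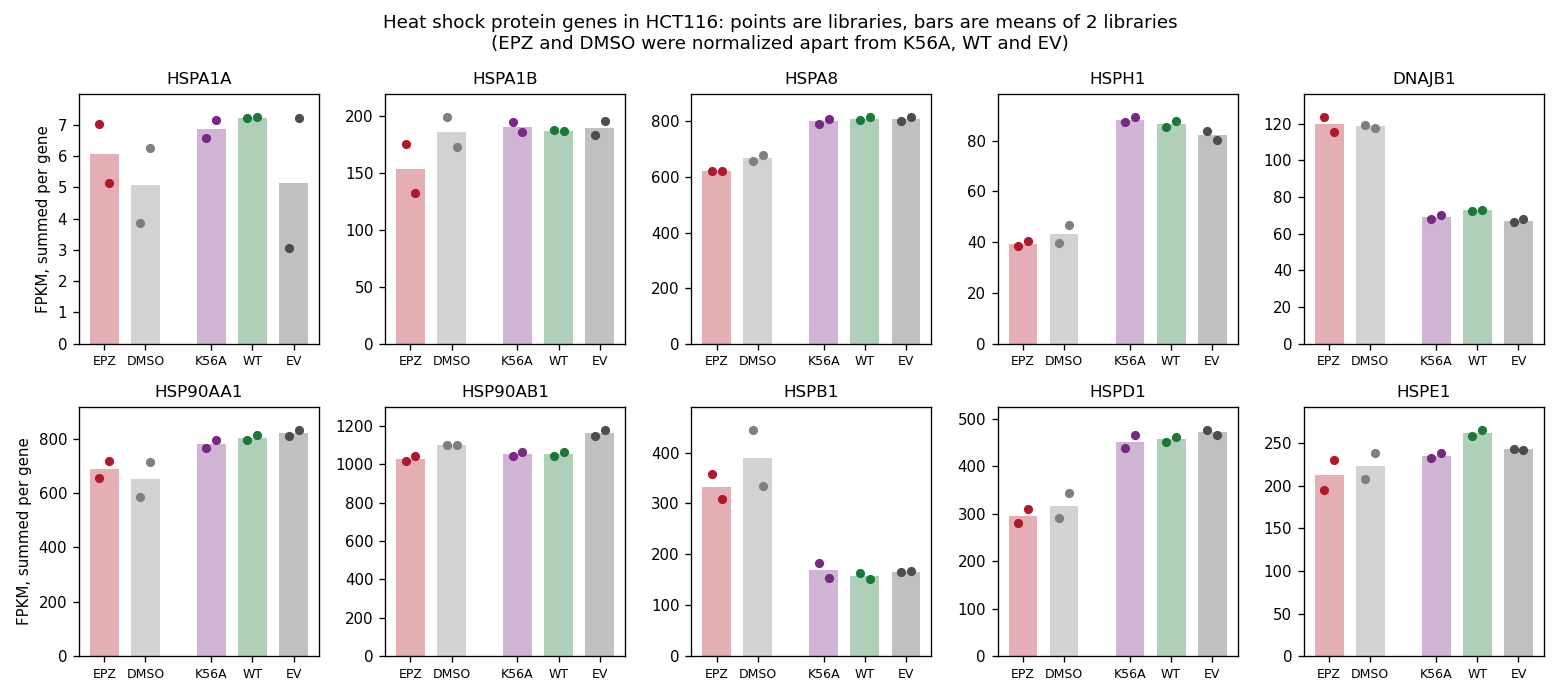
FPKM summed per gene (y axis, starting at 0, own scale per panel) for the 10 heat shock protein genes in EPZ, DMSO, K56A, WT and EV libraries; points are libraries and bars the means of 2. The largest steps are between the experiments, for HSPB1, DNAJB1, HSPH1 and HSPD1.

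Across all genes, few passed in any comparison, which is the background for the count of 0 of 10. In EPZ against DMSO, 0% of the 13130 genes tested rose and 0.00762% fell. In K56A against EV, 0.19% of 11566 genes rose and 0.597% fell. For WT against EV the shares were 0.0778% and 0.458%, and for K56A against WT 0.0173% and 0.0432%. The median log2 fold change of the 10 genes was -0.10 for EPZ over DMSO, -0.01 for K56A over EV, -0.01 for WT over EV and -0.02 for K56A over WT, against 0.00, 0.03, 0.01 and 0.01 over all genes tested. All these fold changes were taken after adding 0.5 to each FPKM.

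Groups of 2 libraries that do not overlap were counted as well. In EPZ against DMSO, 0 of the 10 were higher in both libraries (18.6% of all genes) and 2 lower (18.8%), HSPA8 and HSP90AB1. In K56A against EV, 2 were higher (27.6%), HSPH1 and DNAJB1, and 4 lower (17.9%), HSP90AA1, HSP90AB1, HSPD1 and HSPE1. In WT against EV, 3 were higher (22.6%), HSPH1, DNAJB1 and HSPE1, and 3 lower (20.9%), HSP90AB1, HSPB1 and HSPD1. In K56A against WT, 0 were higher (26%) and 4 lower (19.5%), HSPA1A, DNAJB1, HSP90AA1 and HSPE1. K56A and WT share the EV libraries, so their comparisons with EV are not independent. Some of these separations depend on the scaling. With mitochondrially encoded genes left out of the total, HSPH1 overlapped between WT and EV and DNAJB1 between K56A and EV. On that scale HSPA8 in K56A and HSP90AA1 in WT were lower than EV in both libraries.

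**Figure D2:**
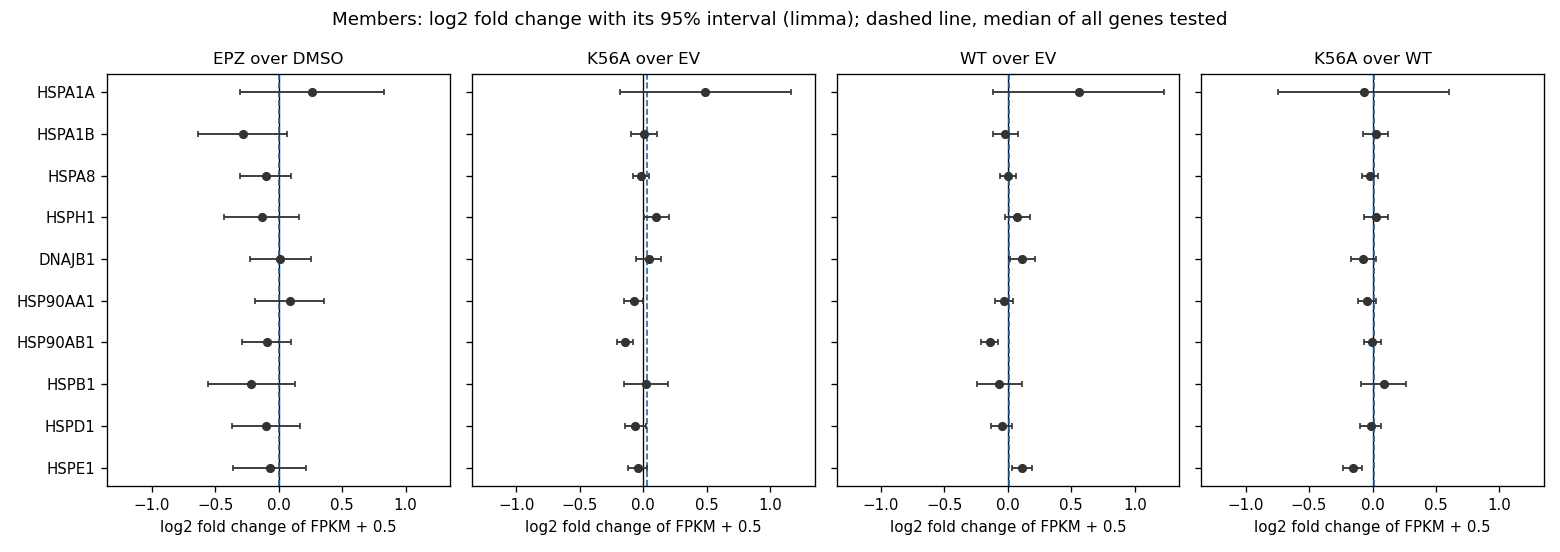
Log2 fold change of FPKM + 0.5 (x axis) with its 95% interval for each gene (rows) in the 4 comparisons, from limma; the solid line is 0 and the dashed line the median of all genes tested. HSPA1A has the widest interval in every panel, and HSP90AB1 lies below 0 with its interval in both comparisons with EV.

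HSPA1B held nearly all of the reads assigned to the inducible HSP70 pair. It stood at 175 and 132 FPKM in EPZ libraries, against 199 and 173 FPKM in DMSO libraries. Among the knockdown lines it stood at 195 and 186 FPKM in K56A and 188 and 186 FPKM in WT, against 184 and 196 FPKM in EV. EPZ replicate 2 was the lowest library and the EPZ and DMSO groups overlapped, as did all groups of the knockdown lines. The log2 fold change was -0.28 (95% interval -0.63 to 0.07) for EPZ over DMSO, with an adjusted p of 0.756, and between -0.02 and 0.03 for the comparisons of knockdown lines.

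HSPA1A stood at 7.02 and 5.14 FPKM in EPZ libraries, against 3.86 and 6.27 FPKM in DMSO libraries. HSPA1A was at 6.58 and 7.15 FPKM in K56A and 7.22 and 7.25 FPKM in WT, against 3.06 and 7.23 FPKM in EV. The low values belong to single libraries, DMSO replicate 1 and EV replicate 1. DMSO replicate 2 lay between the EPZ libraries. EV replicate 2 lay between the WT libraries and above both K56A libraries. DMSO replicate 1 also had the fewest transcripts above 0 of the inhibitor libraries, 54216 against 59403 to 59913, and its part in these values was not tested. HSPA1A took 1.64% of the summed pair in EV replicate 1 and 1.90% in DMSO replicate 1, against 3.27% to 3.85% in the other 8 libraries. The log2 fold change of HSPA1A was 0.49 (95% interval -0.19 to 1.16) for K56A over EV and 0.56 (-0.11 to 1.23) for WT over EV, with adjusted p of 0.475 and 0.468. Without EV replicate 2 it was 1.05 for K56A over EV, with an adjusted p of 0.029, and without EV replicate 1 it was -0.07. For WT over EV these values were 1.12 (adjusted p 0.0534) and 0.00, so both comparisons rest on the low EV replicate 1. EPZ over DMSO was 0.26 (-0.30 to 0.83), with an adjusted p of 0.788, and -0.05 without DMSO replicate 1.

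Since the copies share most of their sequence, their sum is the firmer measure. The sum stood at 182 and 137 FPKM in EPZ, against 203 and 179 FPKM in DMSO, and at 202 and 193 FPKM in K56A and 195 and 194 FPKM in WT, against 187 and 203 FPKM in EV. The low share of EV replicate 1 hardly moved the sum there. For the sum the log2 fold change was -0.27 (95% interval -0.61 to 0.08, adjusted p 0.756) for EPZ over DMSO, 0.02 (-0.09 to 0.13, adjusted p 0.892) for K56A over EV and -0.00 (-0.11 to 0.10, adjusted p 0.977) for WT over EV. K56A over WT was 0.02 (-0.08 to 0.13, adjusted p 0.891).

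**Figure D3:**
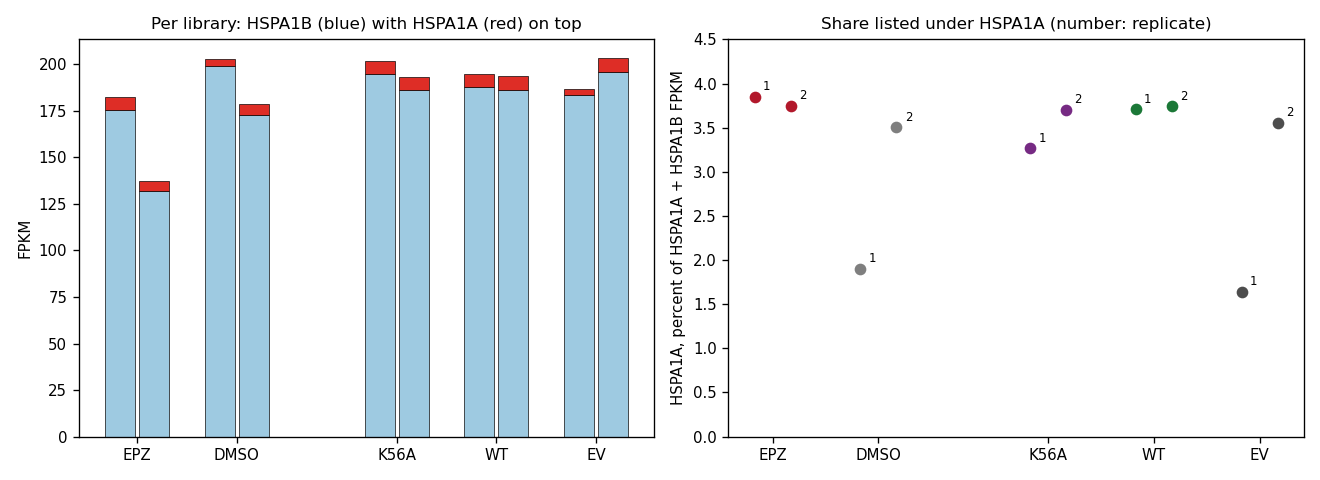
Left, FPKM of HSPA1B (blue) with HSPA1A (red) stacked on it, 1 bar per library; right, HSPA1A as percent of the summed FPKM, with the replicate number beside each point. DMSO replicate 1 and EV replicate 1 lie at 1.90% and 1.64%, and the other 8 libraries between 3.27% and 3.85%.

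HSPA8 (ENSG00000109971, chr11:123057489-123062669, minus strand) encodes the constitutive HSP70, which folds new proteins and strips clathrin from vesicles. It stood at 621 and 622 FPKM in EPZ libraries, against 656 and 679 FPKM in DMSO libraries, and these groups did not overlap. HSPA8 was at 789 and 809.6 FPKM in K56A and 804 and 815 FPKM in WT, against 803 and 814 FPKM in EV. There the 6 libraries lay within one narrow range. EPZ over DMSO had a log2 fold change of -0.10 (95% interval -0.30 to 0.10, adjusted p 0.773), and for K56A over EV it was -0.02 (-0.08 to 0.05, adjusted p 0.839).

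HSPH1 (ENSG00000120694, chr13:31134973-31162388, minus strand) encodes HSP110, an exchange factor that releases ADP from HSP70. It stood at 38.3 and 40.4 FPKM in EPZ libraries, against 39.9 and 46.9 FPKM in DMSO libraries. HSPH1 was at 87.1 and 89.2 FPKM in K56A and 85.3 and 87.6 FPKM in WT, against 83.9 and 80.4 FPKM in EV. Both libraries of K56A and of WT were above both EV libraries. With mitochondrially encoded genes left out of the total, WT and EV overlapped, at 90.6 and 93.1 FPKM against 90.7 and 85.3 FPKM. K56A over EV had a log2 fold change of 0.10 (95% interval 0.00 to 0.20) with an adjusted p of 0.319, and WT over EV had 0.07 (-0.02 to 0.17) with an adjusted p of 0.511. EPZ over DMSO was -0.13 (-0.43 to 0.16), with an adjusted p of 0.794.

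DNAJB1 (ENSG00000132002, chr19:14514769-14529292, minus strand) encodes the J-domain protein that delivers clients to HSP70 and starts its ATP cycle. Its level was 124 and 116 FPKM in EPZ libraries, against 119 and 118 FPKM in DMSO libraries, with overlap and a log2 fold change of 0.01 (95% interval -0.23 to 0.25, adjusted p 0.979). DNAJB1 was at 68.1 and 70.2 FPKM in K56A and 72.2 and 73.1 FPKM in WT, against 66.1 and 68.0 FPKM in EV. WT lay above both other lines, K56A only just above EV. With mitochondrially encoded genes left out of the total, K56A and EV overlapped, at 71.7 and 74.1 FPKM against 71.5 and 72.2 FPKM. WT over EV was 0.11 (95% interval 0.02 to 0.21) with an adjusted p of 0.295, K56A over EV 0.04 (adjusted p 0.690) and K56A over WT -0.07 (adjusted p 0.536).

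HSP90AA1 (ENSG00000080824, chr14:102080742-102139686, minus strand) encodes the stress-inducible cytosolic HSP90. It stood at 657 and 718 FPKM in EPZ libraries, against 585 and 716 FPKM in DMSO libraries, so that the groups overlapped through DMSO replicate 2. HSP90AA1 was at 766 and 794 FPKM in K56A and 795 and 814 FPKM in WT, against 811 and 834 FPKM in EV. K56A lay below both other lines. K56A over EV had a log2 fold change of -0.08 (95% interval -0.15 to -0.00, adjusted p 0.305), and WT over EV had -0.03 (-0.10 to 0.04, adjusted p 0.715). EPZ over DMSO was 0.09 (-0.19 to 0.36, adjusted p 0.855).

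HSP90AB1 (ENSG00000096384, chr6:44246166-44253888, plus strand) encodes the constitutive HSP90 and was the gene of the 10 closest to the threshold. It stood at 1017 and 1041 FPKM in EPZ libraries, against 1099 and 1100.0 FPKM in DMSO libraries. HSP90AB1 was at 1041 and 1065 FPKM in K56A and 1044 and 1064 FPKM in WT, against 1148 and 1181 FPKM in EV. The lines with either form of CDK9 put back thus overlapped each other and lay below EV, and EPZ lay below DMSO. Its log2 fold change was -0.14 ± 0.03 (SE, 95% interval -0.21 to -0.08, adjusted p 0.0750) for K56A over EV and -0.14 ± 0.03 (-0.21 to -0.08, adjusted p 0.0837) for WT over EV. K56A over WT was -0.00 (-0.07 to 0.06, adjusted p 0.993), and EPZ over DMSO was -0.10 (-0.29 to 0.10, adjusted p 0.775). K56A over EV was past the threshold in 3 of 16 alternatives and WT over EV in 1 of 16. For K56A over EV these were a mean FPKM of at least 5 as the filter (limma adjusted p 0.0462), median ratio scaling (0.0376) and a total that leaves out mitochondrially encoded genes (0.0271). For WT over EV it was the last of these (0.0397). Over all alternatives the adjusted p reached 0.375 for K56A over EV and 0.413 for WT over EV, with the same sign throughout.

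Beside the HSP90AB1 values, 7 of the 13 mitochondrially encoded genes fell in K56A against EV and 0 of 13 in WT against EV (limma adjusted p under 0.05; 12 and 3 at an unadjusted p under 0.05). The 7 were MT-ND1, MT-ND2, MT-ND4, MT-ND5, MT-ND6, MT-ATP6 and MT-CO3, with log2 fold changes of -0.39 to -0.13, and no call of these held under every alternative. The 7 epithelial markers lay on both sides. In K56A over EV 3 were above 0 and 4 below, against 6672 and 4894 of all genes tested. In WT over EV 2 were above 0 and 5 below, against 6084 and 5482. The 1 marker past the threshold in each was CLDN7, a tight junction protein. CLDN7 stood at 126 and 124 FPKM in K56A and 115 and 113 FPKM in WT, against 148 and 154 FPKM in EV. It fell in K56A (-0.28, limma adjusted p 0.0265) and WT (-0.41, adjusted p 0.0125). The first was lost without any 1 of the 6 libraries and the second without WT replicate 1, WT replicate 2 or EV replicate 2. With no intensity trend both were lost (limma adjusted p 0.265 for K56A and 0.302 for WT). The call in K56A was also lost from the single table (0.0823) and with only the 2 groups compared (0.0692). The part of CLDN7 in the difference of HSP90AB1 was not tested. With the mitochondrially encoded genes left out of the total, the log2 fold change of HSP90AB1 was -0.16 for K56A and -0.15 for WT over EV. The ratio of HSP90AA1 to HSP90AB1 FPKM was 0.736 and 0.745 in K56A and 0.762 and 0.765 in WT, against 0.707 and 0.706 in EV. In EPZ it was 0.645 and 0.690, against 0.532 and 0.651 in DMSO.

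HSPB1 (ENSG00000106211, chr7:76302673-76304295, plus strand) encodes HSP27, a small heat shock protein that holds unfolding proteins and binds actin filaments. It stood at 358 and 308 FPKM in EPZ libraries, against 445 and 334 FPKM in DMSO libraries. HSPB1 was at 183 and 154 FPKM in K56A and 164 and 152 FPKM in WT, against 164 and 167 FPKM in EV. DMSO replicate 1 was the highest library, and EPZ and DMSO overlapped. The log2 fold change was -0.22 (95% interval -0.56 to 0.13, adjusted p 0.756) for EPZ over DMSO, 0.02 (-0.16 to 0.20) for K56A over EV and -0.07 (-0.24 to 0.11) for WT over EV. Without EPZ replicate 1, HSPB1, HSPA1B and HSPA1A were at -0.32, -0.49 and 0.05 in EPZ over DMSO. Without DMSO replicate 2, HSPB1, HSPA1B and HSPA1A passed in EPZ over DMSO, at -0.42, -0.39 and 0.58, as did 1560 genes in all, and in that fit the DMSO group is replicate 1 alone. Without DMSO replicate 1 the same genes were at -0.01, -0.18 and -0.05, and without EPZ replicate 2 at -0.11, -0.08 and 0.47, with none past the threshold.

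HSPD1 and HSPE1 encode HSP60 and HSP10, the barrel and the lid of the mitochondrial chaperonin. They lie head to head on chromosome 2 (HSPD1, ENSG00000144381, chr2:197486584-197500274, minus strand; HSPE1, ENSG00000115541, chr2:197500140-197503449, plus strand). Their RefSeq starts nearest the most abundant listed transcripts are 539 bases apart, and the 3-unit matches printed for HSPD1 lie between them. HSPD1 stood at 281 and 311 FPKM in EPZ libraries, against 292 and 343 FPKM in DMSO libraries. HSPD1 was at 439 and 466 FPKM in K56A and 452 and 462 FPKM in WT, against 478 and 467 FPKM in EV. EV lay above the other lines, though the nearest values, 467 and 466 FPKM, almost met. The log2 fold change of HSPD1 was -0.06 (95% interval -0.15 to 0.02, adjusted p 0.459) for K56A over EV and -0.05 (-0.13 to 0.04, adjusted p 0.630) for WT over EV, and -0.10 (-0.36 to 0.17, adjusted p 0.838) for EPZ over DMSO.

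HSPE1 stood at 195 and 230.3 FPKM in EPZ libraries, against 208 and 239 FPKM in DMSO libraries. HSPE1 was at 233 and 238 FPKM in K56A and 259 and 266 FPKM in WT, against 243 and 242 FPKM in EV. WT was above and K56A below both EV libraries, and the 3 lines did not overlap. Of the 13 mitochondrially encoded genes, MT-ND5 and MT-ATP6 fell in K56A against WT (limma adjusted p under 0.05; 11 at an unadjusted p under 0.05), and without them in the total HSPE1 was at -0.16. The log2 fold change was -0.16 ± 0.03 (SE, 95% interval -0.23 to -0.08) for K56A over WT with an adjusted p of 0.146, 0.11 (0.04 to 0.19) for WT over EV with an adjusted p of 0.202, and -0.04 (-0.12 to 0.03) for K56A over EV with an adjusted p of 0.581. HSPD1 showed -0.01 (-0.10 to 0.07) for K56A over WT. The ratio of HSPE1 to HSPD1 FPKM was 0.530 and 0.512 in K56A and 0.573 and 0.576 in WT, against 0.509 and 0.518 in EV, and 0.695 and 0.740 in EPZ, against 0.712 and 0.696 in DMSO.

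**Figure D4:**
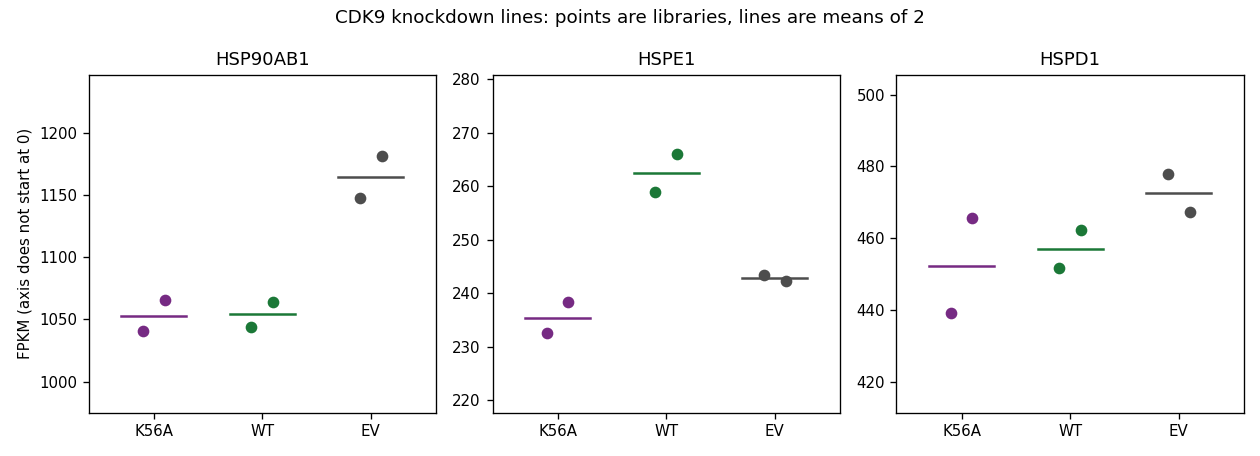
FPKM (y axis, not starting at 0) of HSP90AB1, HSPE1 and HSPD1 in the K56A, WT and EV lines; points are libraries and lines the means of 2. HSP90AB1 lies at 1041 to 1065 FPKM in K56A and WT and at 1148 and 1181 FPKM in EV, and HSPE1 is highest in WT.

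Intervals show what size of difference the libraries leave. For the 9 genes other than HSPA1A, every 95% interval of the comparisons of knockdown lines lay between log2 fold changes of -0.24 and 0.26. For EPZ over DMSO the intervals of the 9 genes lay between -0.63 and 0.36.

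For HSPB1, DNAJB1, HSPH1 and HSPD1 the steps between the experiments were larger than those between groups within them, but the tables were normalized separately and the difference was not tested. HSPB1 in EV was 0.425 times its DMSO level and DNAJB1 0.566 times, while HSPH1 was 1.89 times and HSPD1 1.49 times. The median over 10482 genes was 0.913 times, and 5.9% of genes had a lower ratio than HSPB1 and 89.1% a lower one than HSPH1. On a scale without mitochondrially encoded genes the ratios were 0.499, 0.664, 2.22 and 1.74, against a median of 1.07. HSPA1B was at 1.02 times and HSP90AB1 at 1.06 times on the first scale, and at 1.20 and 1.24 times without mitochondrially encoded genes. On the first scale both inhibitor groups lay on one side of all 3 knockdown lines for HSPB1, DNAJB1, HSPH1, HSPD1, HSPA8 and HSP90AA1. On the other scale this held also for HSPA1B, HSP90AB1 and HSPE1, so it depends on the scaling for these genes. How many of all genes separate the experiments in this way was not counted. The separation can therefore not be read as particular to the heat shock protein genes.

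The tables list FPKM per transcript, which shows how each gene is made up. One protein-coding transcript held most of every gene but HSPH1, for example HSP90AB1-203 with 98.7% to 99.4% over all libraries and HSPB1-201 with at least 91.9%. In 5 genes the share was lower in every library of the knockdown lines than in every EPZ and DMSO library. How many of all genes show this was not counted. The experiments also list different sets of transcripts. The inhibitor experiment lists 4 of DNAJB1, 12 of HSPA8, 17 of HSPD1 and 6 of HSP90AA1. The knockdown lines list 7, 14, 19 and 7 of these, and HSPE1 has 6 in both. The part of these sets in the shares was not tested. HSP90AA1-201 held 94.0% to 95.3% in the knockdown lines against 96.9% to 98.0% in the inhibitor experiment, the narrowest step. HSPA8-224 held 81.3% to 85.4% against 93.6% to 95.8%, and DNAJB1-201 held 79.7% to 85.6% against 90.4% to 93.8%. HSPE1-201 held 83.7% to 85.8% against 90.8% to 92.1%, and HSPD1-202 held 80.3% to 82.7% against 85.1% to 91.5%. Transcripts annotated as retaining an intron, which usually stay in the nucleus or are degraded, made up 13.8% to 15.8% of HSPE1 in the knockdown lines, against 5.94% to 8.25% in the inhibitor experiment. Over all genes outside the mitochondrial genome such transcripts held 13.3% to 13.8% of FPKM in the knockdown lines and 7.44% to 7.94% in the EPZ and DMSO libraries. HSPH1 was split among several transcripts, and HSPH1-206, the most abundant one over all libraries, is annotated for nonsense-mediated decay. In EPZ replicate 1 HSPH1-209, at 12.2 FPKM, and HSPH1-202, at 10.9 FPKM, stood above HSPH1-206 at 10.3 FPKM. HSPH1-206 held 27.0% to 35.3% of HSPH1 in the inhibitor experiment and 34.3% to 41.6% in the knockdown lines.

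**Figure D5:**
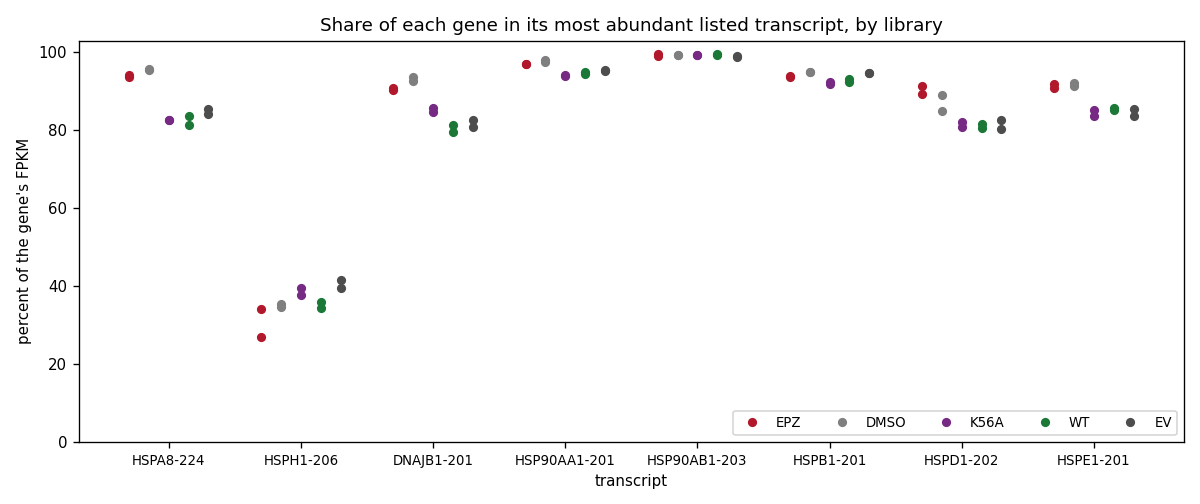
Percent of each gene's FPKM (y axis) held by its most abundant listed transcript (x axis), 1 point per library, coloured by group; HSPA1A and HSPA1B are left out. HSPA8-224, DNAJB1-201, HSPD1-202, HSPE1-201 and, by less, HSP90AA1-201 are lower in all 6 knockdown libraries than in the 4 inhibitor libraries.

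The authors' deposited tables test each transcript, with edgeR for the inhibitor and DESeq2 for the knockdown lines, per the file headers. For EPZ against DMSO, the authors' deposited table calls 0 of 65 transcripts of these genes higher (0.639% of all its transcripts) and 1 lower (0.556%). For K56A against EV, the authors' deposited table calls 2 of 70 higher (1.89%) and 6 lower (1.91%), and for WT against EV the authors' deposited table calls 2 of 72 higher (1.56%) and 3 lower (1.77%). HSP90AB1-203 is the one transcript called in all 3, each time lower. In the authors' deposited table its log2 fold change is -0.09 for EPZ over DMSO (adjusted p 0.0306), -0.18 for K56A over EV (adjusted p 1.06e-05) and -0.15 for WT over EV (adjusted p 0.000109). Its levels are 1012 and 1032 FPKM in EPZ, against 1090.3 and 1094 FPKM in DMSO. These calls rest on the same libraries as the gene values above, and K56A and WT share the EV libraries, so they add no independent samples.

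Other main transcripts called for K56A against EV in the authors' deposited table are HSP90AA1-201, with a log2 fold change of -0.13 (adjusted p 0.00875), and HSPA8-224, with -0.09 (adjusted p 0.0181). HSP90AA1-201 stands at 719.9 and 747 FPKM in K56A, against 773 and 793 FPKM in EV. In the same authors' deposited table HSP90AA1-204, annotated for nonsense-mediated decay, is called higher, with 30.8 and 30.5 FPKM in K56A against 25.3 and 26.0 FPKM in EV. The other called transcripts are minor forms below 8 FPKM, such as HSP90AB1-202 at 2.91 and 2.58 FPKM in K56A against 6.36 and 4.79 FPKM in EV. For WT against EV the authors' deposited table calls the minor form HSP90AB1-201 lower, at 1.40 and 2.47 FPKM in WT against 6.64 and 4.71 FPKM in EV.

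Genes that work with the heat shock proteins were followed in 9 lists, covering other HSP70 and small heat shock proteins, HSP90 co-chaperones, J-domain proteins, exchange factors, mitochondrial chaperones and proteases, TRiC and prefoldin, heat shock factors and HSF1 targets. Of their genes other than the 10 described here, 88 were tested for EPZ against DMSO and 77 in the knockdown lines. By limma with adjusted p, 0 passed in EPZ against DMSO, K56A against EV and K56A against WT, and 1 fell in WT against EV. At an unadjusted p under 0.05 there were 5 of 88 for EPZ against DMSO, and of 77 there were 12 for K56A against EV, 9 for WT against EV and 14 for K56A against WT, beside 5.83%, 15.1%, 13.5% and 13% of all genes tested. The median log2 fold change was -0.03 for EPZ over DMSO, 0.00 for K56A over EV, 0.02 for WT over EV and -0.02 for K56A over WT, near those of all genes tested.

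SERPINH1 was the gene that fell. It encodes HSP47, the collagen chaperone of the endoplasmic reticulum, and is a known HSF1 target. It stood at 93.0 and 91.9 FPKM in WT, against 112 and 115 FPKM in EV, -0.30 ± 0.04 on the log2 scale (SE; limma, adjusted p 0.0308), and at 107 and 104 FPKM in K56A. K56A over WT was 0.19 (adjusted p 0.145). Leaving out any 1 of the 6 libraries put SERPINH1 in WT over EV at -0.32 to -0.28, with adjusted p of 0.0531 to 0.194.

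HSF1, the heat shock factor itself, stood at 62.5 and 58.2 FPKM in K56A, against 53.1 and 50.5 FPKM in WT and 50.8 and 53.6 FPKM in EV. K56A lay above both other lines, with log2 fold changes of 0.21 over EV (adjusted p 0.156) and 0.22 over WT (adjusted p 0.176). Among its targets DNAJA1 stood at 72.7 and 74.3 FPKM in K56A, against 80.5 and 81.3 FPKM in EV (log2 fold change -0.14, adjusted p 0.185). DNAJB6, a J-domain protein that holds back aggregation, stood at 39.7 and 40.2 FPKM in K56A, against 42.9 and 46.2 FPKM in EV (-0.16, adjusted p 0.230). Higher in K56A than in EV were DNAJA4, at 77.8 and 78.3 FPKM against 71.2 and 73.3 FPKM (0.11, adjusted p 0.270), and AHSA1. AHSA1 stood at 113.5 and 116.2 FPKM in K56A, against 108.0 and 107.1 FPKM in EV (0.09, adjusted p 0.290). BAG3, a co-chaperone of selective autophagy, stood at 41.1 and 39.9 FPKM in K56A, against 35.6 and 37.1 FPKM in WT (0.16, adjusted p 0.258). In EV BAG3 was at 39.3 and 39.4 FPKM, near K56A. Of 22 HSF1 targets tested, 9 lay above 0 and 13 below 0 in K56A over EV, against 6672 and 4894 of all genes tested. In K56A over WT, the comparison given for BAG3, 6 lay above 0 and 16 below 0, against 6298 and 5268. Whether these counts differ from those of all genes was not tested.

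For EPZ against DMSO the smallest p of these 9 lists belonged to DNAJB4, a J-domain protein of the HSP40 family. It stood at 24.5 and 27.5 FPKM in EPZ, against 14.4 and 19.5 FPKM in DMSO, a log2 fold change of 0.62 with an adjusted p of 0.756. FKBP5, a co-chaperone of HSP90 on steroid receptors, stood at 19.9 and 21.6 FPKM in EPZ, against 26.0 and 27.0 FPKM in DMSO (-0.35, adjusted p 0.756). PFDN4, a prefoldin subunit, stood at 39.96 and 46.6 FPKM in EPZ, against 24.2 and 35.9 FPKM in DMSO (0.54, adjusted p 0.756). Without DMSO replicate 2 the values of DNAJB4 and PFDN4 were 0.83 and 0.82 and past the threshold, and without DMSO replicate 1 they were 0.41 and 0.26 and not past it. In the knockdown lines, the 11 J-domain genes tested lay on both sides. In WT over EV 7 were above 0 and 4 below, against 6084 and 5482 of all genes tested. In K56A over EV 6 were above 0 and 5 below, against 6672 and 4894. DNAJC8 was at 51.3 and 52.7 FPKM in WT, against 43.7 and 46.5 FPKM in EV (0.20, adjusted p 0.151), and DNAJC2 at 31.6 and 33.3 FPKM in K56A, against 28.8 and 28.0 FPKM in EV (0.19, adjusted p 0.174). CDC37, which brings kinases to HSP90, stood at 218 and 212 FPKM in K56A, against 199.7 and 194 FPKM in WT (0.13, adjusted p 0.225). HSPB11, which works in cilia rather than as a stress chaperone, stood at 23.9 and 24.5 FPKM in K56A, against 27.2 and 29.6 FPKM in WT (-0.22, adjusted p 0.205).

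HSPA4, a relative of HSPH1, stood at 120 to 147 FPKM in EPZ, against 124 to 135 FPKM in DMSO. HSPA4 was at 91.7 to 105 FPKM in K56A and WT, against 90.9 and 93.3 FPKM in EV. The genes whose pattern over the 6 knockdown libraries was most like the mean centred log2 level of the 10 were RPL13A, TCEAL4, NDUFAF8, OSBPL8 and SRSF9, with Pearson r of 0.981 to 0.998 among 8345 genes compared. That mean is lowest in EV replicate 1, at -0.09, against -0.00 to 0.03 in the other 5 libraries, and it rests on HSPA1A of that library, whose centred log2 level is -0.91. Without HSPA1A the mean of the other 9 genes is -0.00 in EV replicate 1, with r of 0.351 to the mean of all 10, so the likeness of these 5 genes rests on that 1 value. RPL13A stood at 781 FPKM in EV replicate 1 and at 827 to 843 FPKM in the others. Over the 4 inhibitor libraries the corresponding genes were KPNB1, DUXAP9, SOD2, EIF3FP3 and GART, for which no coefficient is given with so few libraries.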

How the data were processed

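Libraries were made from total RNA with a TruSeq mRNA kit, per the labels. The authors deposited 3 tables of FPKM per transcript (EPZ with DMSO, WT with EV, K56A with EV). Build GRCh38 and the tools RSEM 1.3.3, STAR 2.7.1a, DESeq2 1.32.0 and Trim Galore 0.6.6 are listed, without roles, per the submitters' processing notes. Neither strand setting nor annotation release is stated in the sources used here. The deposited tables also hold the authors' log2 fold changes and p-values per transcript, made with edgeR (inhibitor) or DESeq2 (knockdown) per the file headers. Another 4 columns of group summaries were not used. Every transcript listed is above 0 in 2 or more of the 4 libraries of its table.

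FPKM were summed per gene. The EV libraries stand in both knockdown tables and differ by a factor of 1.0007 and 1.0006, by whose mean the K56A libraries were multiplied. Only the 69086 transcripts in both tables were summed, and 2284 of 13850 genes with over 5% of FPKM in transcripts of 1 table were left out. Genes reaching 1 FPKM in 2 or more libraries were tested on log2(FPKM + 0.5), which understates changes of low genes, with limma 3.58.1 (R 4.3.3), an intensity trend, group means only, two-sided p and Benjamini-Hochberg adjustment at 0.05. EPZ against DMSO used 4 libraries and the knockdown comparisons 1 fit of 6. The sum of HSPA1A and HSPA1B was tested in parallel fits. The steps were tested on simulated data. Summaries and plots used matplotlib 3.10.9, numpy 2.4.6, pandas 2.3.3 and Python 3.11.15. Depth is unknown, since no counts are given. The commonest ratio of low values between libraries put depths at 1.07 to 1.29 times DMSO replicate 1 and at 0.868 to 1.21 times EV replicate 1.

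The members and the 14 gene lists were chosen with earlier results of these data known. All 10 members are named. From each list come the genes past the threshold and some of the 4 with the smallest p per comparison. As most alike, the 5 genes of mean FPKM of at least 5 with the highest r are named. HSPA4 and the transcripts named from the authors' table were picked after their values were seen. Other pseudocounts, filters and scalings, no trend, a replicate block, leaving out each library, single tables and fits of 2 groups were tried.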

Additional observations from a re-analysis of the deposited data

Results flagged for a closer look

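HSPE1, the lid of the mitochondrial chaperonin, was set apart because the lines with the 2 forms of CDK9 lay on opposite sides of EV. Both K56A libraries (233 and 238 FPKM) were below, and both WT libraries (259 and 266 FPKM) above, the EV libraries at 243 and 242 FPKM. The difference itself, K56A over WT, was a log2 fold change of -0.156 with an unadjusted p of 0.00154 and an adjusted p of 0.146 (limma), so it did not pass over all genes tested. Over the 15 alternatives it ranged from -0.18 to -0.14, with adjusted p of 0.0798 to 0.608.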

How the results depend on the processing

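The sum of HSPA1A and HSPA1B stayed on the same side of the threshold under every alternative run. Of 590 values of the 10 genes under alternatives, 564 kept their sign, 26 small ones did not, and 8 were past the threshold: HSP90AB1 in 4 and HSPA1A, HSPA1B and HSPB1 in the fits without 1 library given in the report. The count of all genes passing moved much more. For EPZ against DMSO it was 1, and 0 with a pseudocount of 0.1, with no filter, with a mean FPKM of at least 5 and with no trend. Leaving out 1 library gave 34 to 1560, the highest without DMSO replicate 2, and in each such fit the single library left in a group is taken to vary as the other groups do. For WT against EV it was 62, and 40 with no filter, 168 with a mean of at least 5, 1 with no trend, 105 without mitochondrial genes in the total, 10 from the single table, 11 with only the 2 groups, and 2 to 11 leaving out 1 library. For K56A against EV it was 91, and 55, 180, 4, 130, 22, 25 and 6 to 38 in the same order. For K56A against WT it was 7, and 1, 21, 0 and 16 in that order up to the total without mitochondrial genes, 21 with only the 2 groups, and 1 to 19 leaving out 1 library. Median ratio scaling split K56A against EV into 15 higher and 94 lower, against 22 and 69, and leaving mitochondrial genes out of the total split K56A against WT into 7 and 9, against 2 and 5. With no trend, SERPINH1 in WT over EV had an adjusted p of 0.338, 0.0636 from the single table and with only the 2 groups 0.0515. The cause was not tested.

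The replicate numbers are shared by the groups, but same-numbered libraries did not deviate together in the knockdown lines (r of replicate differences across genes -0.03 to 0.03) and did so at 0.245 for EPZ and DMSO, and with 2 pairs and no label on it, whether the numbers mark a shared batch cannot be told. With a replicate block the count was 2 for EPZ against DMSO (2206 genes at an unadjusted p under 0.05, against 765), 46 for WT against EV, 53 for K56A against EV and 3 for K56A against WT, and 0 of the 10 genes passed. With 2 libraries a group, small differences are not detectable here.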
